A study of Mus musculus with 6 samples.

Results

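The collagen genes of the mouse were examined in a list of open-chromatin regions from basal stem cells of naive and inflamed prostates. Members were all protein-coding genes whose symbol is Col, a number, the letter a and a number, and there were 44 of them among 21887 protein-coding genes. They were divided into 11 fibrillar collagens, 10 collagens of the basement membrane and its anchoring structures, and 23 other collagens. A region was given to a gene when its centre fell inside the gene span, or when it lay outside all protein-coding genes and that gene was the nearest within 100 kb. By this rule 27 of the 6502 listed regions belonged to collagen genes, and 14 of the 44 genes had at least 1.

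The study ran ATAC-seq, in which a transposase cuts accessible DNA, on 6 libraries of freshly sorted cells. The 3 naive libraries carry the genotype label WT and the treatment label control. The 3 inflamed libraries carry the genotype label POET3, an ovalbumin-expressing prostate transgenic line, and come from prostates harvested 7 days after transfer of pre-activated OT-1 splenocytes. The extraction protocol names POET3 mice for both groups, so the naive genotype is stated in 2 ways, and by the labels genotype and inflammation cannot be told apart. All libraries share the gate CD45-CD31-Sca-1+CD49f+. Mouse age, the promoter of the transgene and any pooling of animals are not given in the sources used here. The list gives chromosome, start and end for each region and nothing else. Its name includes an abbreviation for a difference and edgeR is among the named tools, so it was read as regions that differed between the groups, but no value per library, no depth, no direction and no significance come with it. Every statement here is therefore about where listed regions lie, never about which group was more open. Regions have 1 of 2 widths, 451 bases (3291 regions) or 143 bases (3210 regions), apart from 1 of 235 bases, and what the widths mean is not given in the sources used here. The labelled cell type could not be checked against marker levels. A listed region was given to 3 of 6 basal markers (Krt14, Trp63 and Col17a1), 1 of 4 luminal markers (Krt19), 3 of 7 fibroblast and smooth muscle markers (Dcn, Acta2 and Vim), 1 of 3 leukocyte markers (Ptprc) and 1 of 2 endothelial markers (Cdh5). Of all protein-coding genes, 17.0% had one. Markers of every type were among those with a region, gene span was not matched, and these counts do not identify the sorted cells.

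Collagens are extracellular matrix proteins whose chains wind into a triple helix built on a repeat with glycine at every turn. Fibrillar collagens form the tensile fibres of connective tissue and are made mainly by fibroblasts and related mesenchymal cells. Type IV collagen forms the sheet-like network of basement membranes, on which the basal cells of the prostate epithelium rest. Basal cells hold on to the basement membrane through hemidesmosomes, in which the transmembrane collagen XVII sits beside the integrin that contains CD49f, the antigen of the sort.

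Of the 44 collagen genes, 14 (31.8%, exact Clopper-Pearson 95% interval 18.6 to 47.6, counting error only) had a listed region, against 17.0% of all protein-coding genes. Collagen genes are long, with a median span of 114 kb against 17.2 kb for all protein-coding genes, and a long gene encloses more regions wherever they fall. Shares were therefore also read within classes of gene span. None of the 4 collagen genes under 20 kb had a region (background 7.65%), and 3 of 11 genes of 20 to 50 kb did (27.3%, background 18.4%). None of 3 genes of 50 to 100 kb had one (background 28.2%), while 8 of 18 genes of 100 to 200 kb did (44.4%, background 41.6%). Of the 8 collagen genes of 200 kb or more, 3 had a region (37.5%, background 58.5%). In each span class the background lay inside the exact interval of the collagen share, as the plot of shares by gene span shows. With so few genes in a class these intervals are wide, and they show neither that collagen genes were at the level of other genes of their length nor that they differed from it.

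**Figure D1:**
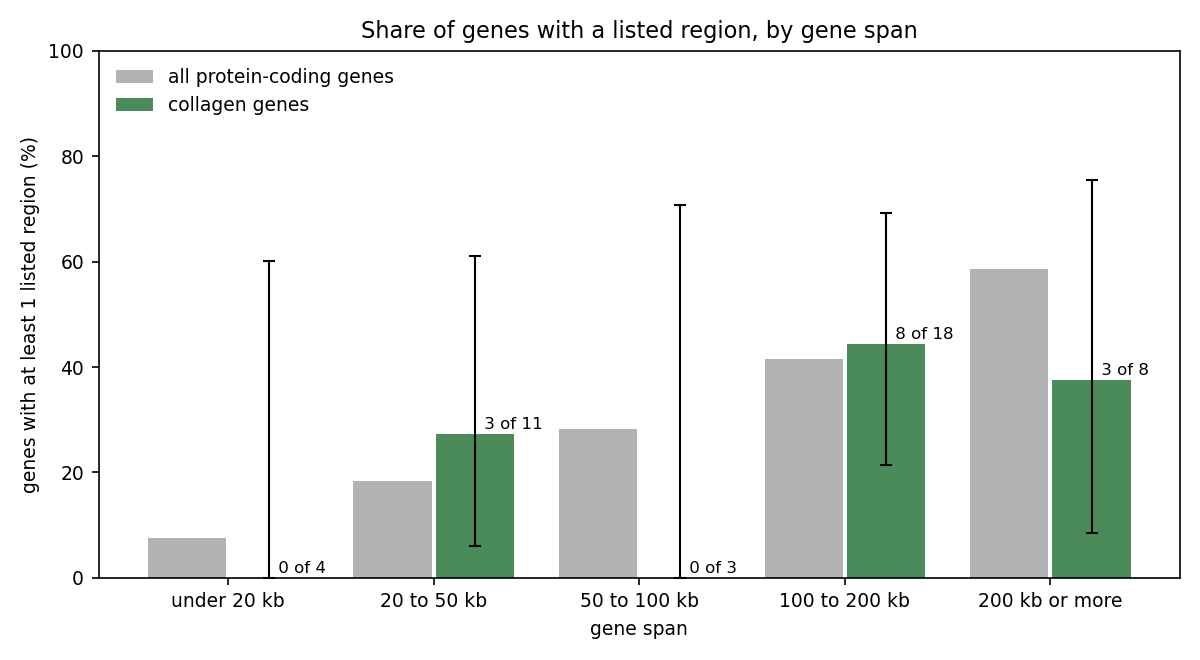
Share of genes with at least 1 listed region (y axis, percent) in 5 classes of gene span (x axis), for all protein-coding genes (grey) and collagen genes (green). Error bars are exact Clopper-Pearson 95% intervals and labels give the genes with a region of those in the class. The collagen share was 44.4% at 100 to 200 kb and 37.5% at 200 kb or more, against 41.6% and 58.5% of all protein-coding genes.

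The genes with regions differed in how many they had. A single region was found at 7 genes and 2 regions at 3 genes. Col4a4 and Col4a6 had 3 each, and Col24a1 and Col28a1 had 4 each. At least 2 regions were found at 7 of 44 collagen genes (15.9%, background 5.29%), at least 3 at 4 (9.09%, background 1.96%) and 4 or more at 2 (4.55%, background 0.832%). These backgrounds are over genes of all lengths. Among genes of 100 kb or more, 2 of 26 collagens had at least 3 regions inside the span (7.69%), against a background of 7.29%. By width, 9 collagen genes had a 451-base region (20.5%, background 9.22%) and 8 had a 143-base region (18.2%, background 9.94%). Regions were of 451 bases only at 6 genes and of 143 bases only at 5. Of the 7 genes with at least 2 regions, Col24a1, Col25a1 and Col28a1 had both widths (42.9%), against 40.0% of all 1158 protein-coding genes with at least 2. Of the 27 regions, 17 were 451 bases wide and 10 (37.0%, exact interval 19.4 to 57.6) were 143 bases wide, against 50.5% of 143 bases among the 5587 regions given to any protein-coding gene. The plot of regions per gene gives all 44 members.

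**Figure D2:**
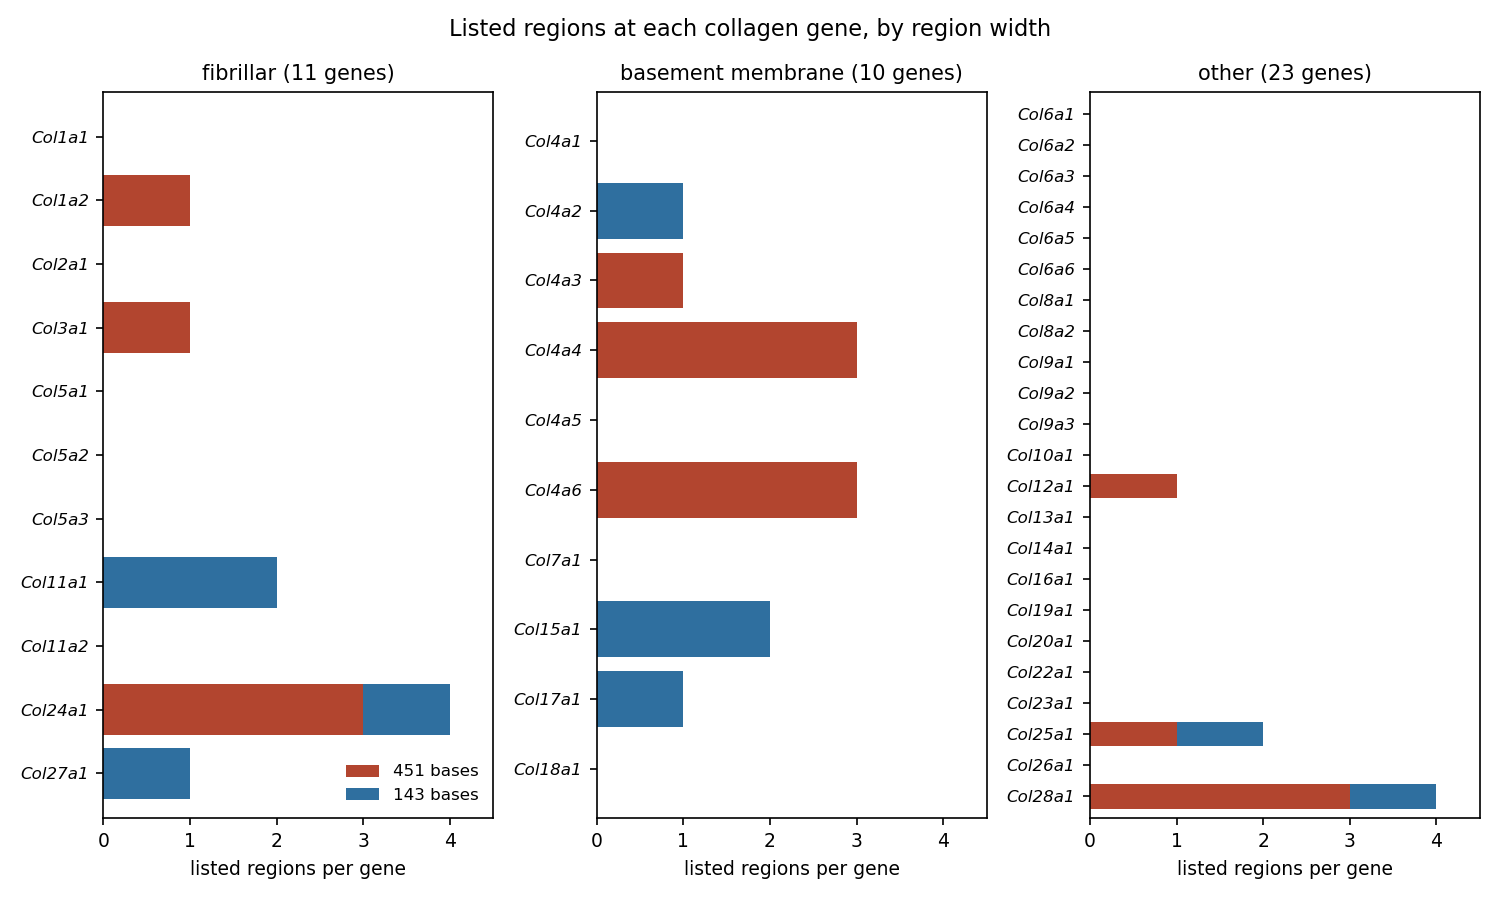
Number of listed regions (x axis) given to each of the 44 collagen genes (y axis), in 3 panels for fibrillar, basement membrane and other collagens, with 451-base regions in red and 143-base regions in blue. Empty rows are the 30 genes with none, 20 of which are in the panel of other collagens.

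A region was given to 6 of 10 basement membrane genes (60.0%, exact interval 26.2 to 87.8), to 5 of 11 fibrillar genes (45.5%, 16.7 to 76.6) and to 3 of 23 other collagens (13.0%, 2.78 to 33.6), against 17.0% of all protein-coding genes. The median span was 125 kb (31.3 to 309) for basement membrane, 45.1 kb (16.8 to 260) for fibrillar and 107 kb (7.11 to 420) for other collagens. At those medians the background was 41.6% (100 to 200 kb, for basement membrane and other collagens) and 18.4% (20 to 50 kb, for fibrillar collagens). The intervals of the basement membrane and fibrillar shares held these backgrounds. That of the other collagens, up to 33.6%, lay below 41.6% but held the 17.0% of all genes. Each class mixes short and long genes, so the background at its median span is not matched to its genes. No matched background was computed. The part of gene length in the class counts was not tested. Counting only regions inside gene spans, basement membrane collagens held 10 regions in 1.34 Mb, or 7.44 per Mb. Fibrillar collagens held 4 in 1.05 Mb (3.82 per Mb) and the others 2 in 3.05 Mb (0.655 per Mb). All collagen spans together held 16 in 5.44 Mb, or 2.94 per Mb, close to the 3.00 per Mb of protein-coding spans of all lengths. The class densities rest on few regions, and no interval was computed for them. The basement membrane density rests in part on Col4a4 and Col4a6, and was 4.46 per Mb without both (4 regions in 0.897 Mb). No test was made between the classes, because genes are few, some are neighbours, and genes are not replicates of a condition.

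**Figure D3:**
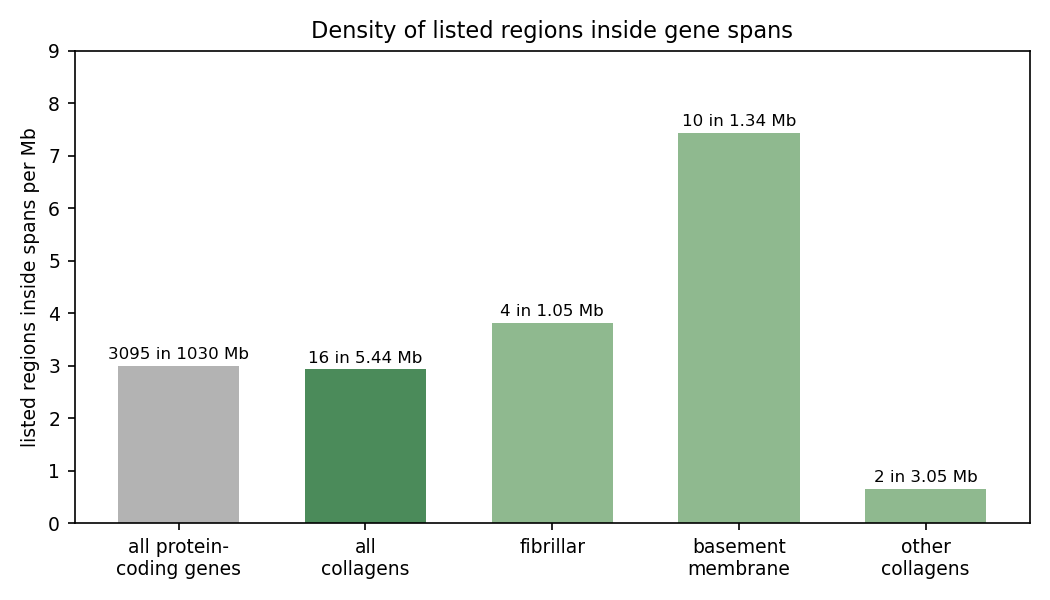
Listed regions centred inside gene spans per Mb of span (y axis, overlapping spans counted once) for all protein-coding genes, all collagens and the 3 collagen classes (x axis), with the counts above each bar. Basement membrane collagens stood at 7.44 per Mb (10 regions) and other collagens at 0.655 per Mb (2 regions), with 2.94 per Mb for the whole family. No interval was computed for these densities.

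Within the basement membrane class, the 6 type IV genes, which encode the network chains, accounted for 8 of the 11 regions. All 8 lay inside gene spans, and 7 of them were 451 bases wide. These genes sit in 3 neighbouring pairs known to be transcribed away from each other from a shared promoter area. Each pair had a region in at least 1 partner. All 6 spans were 114 kb or more, and such lengths often have a region. The background was 41.6% at 100 to 200 kb and 58.5% at 200 kb or more. Col4a3 and Col4a4, chains of the specialised network found in kidney glomeruli, overlap by 114 bases on chromosome 1. Col4a4 (NCBI gene 12829, minus strand) had 3 regions of 451 bases. One lay 8.87 kb inside its 5′ end (chr1:82577937-82578387) and the others near its 3′ end, at 81.1% and 96.6% of the span from the 5′ end (chr1:82474429-82474879 and chr1:82452936-82453386). Col4a3 had 1 region of 451 bases, 16.5 kb from the end that faces Col4a4 (chr1:82603202-82603652). The regions on either side of the shared end were thus 25.3 kb apart, with neither at the shared end itself.

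Col4a5 and Col4a6 encode chains that are paired in the basement membranes of several epithelia and of smooth muscle, and lie 1.27 kb apart on chromosome X. Col4a6 (NCBI gene 94216) had 3 regions of 451 bases, at 5.85 kb (chrX:141468020-141468470), 88.0 kb (chrX:141385915-141386365) and 261 kb (chrX:141212690-141213140) from its 5′ end. Col4a5 was given none, although the first of these regions lay 7.12 kb from its span. Col4a1 and Col4a2 encode the chains found in nearly all basement membranes and overlap by 85 bases on chromosome 8. Col4a2 had a single 143-base region in mid-gene, 59.5 kb from its 5′ end (chr8:11372271-11372413), and Col4a1 had none. In the map of these pairs, regions are seen in Col4a2, Col4a3, Col4a4 and Col4a6 and not in Col4a1 or Col4a5.

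**Figure D4:**
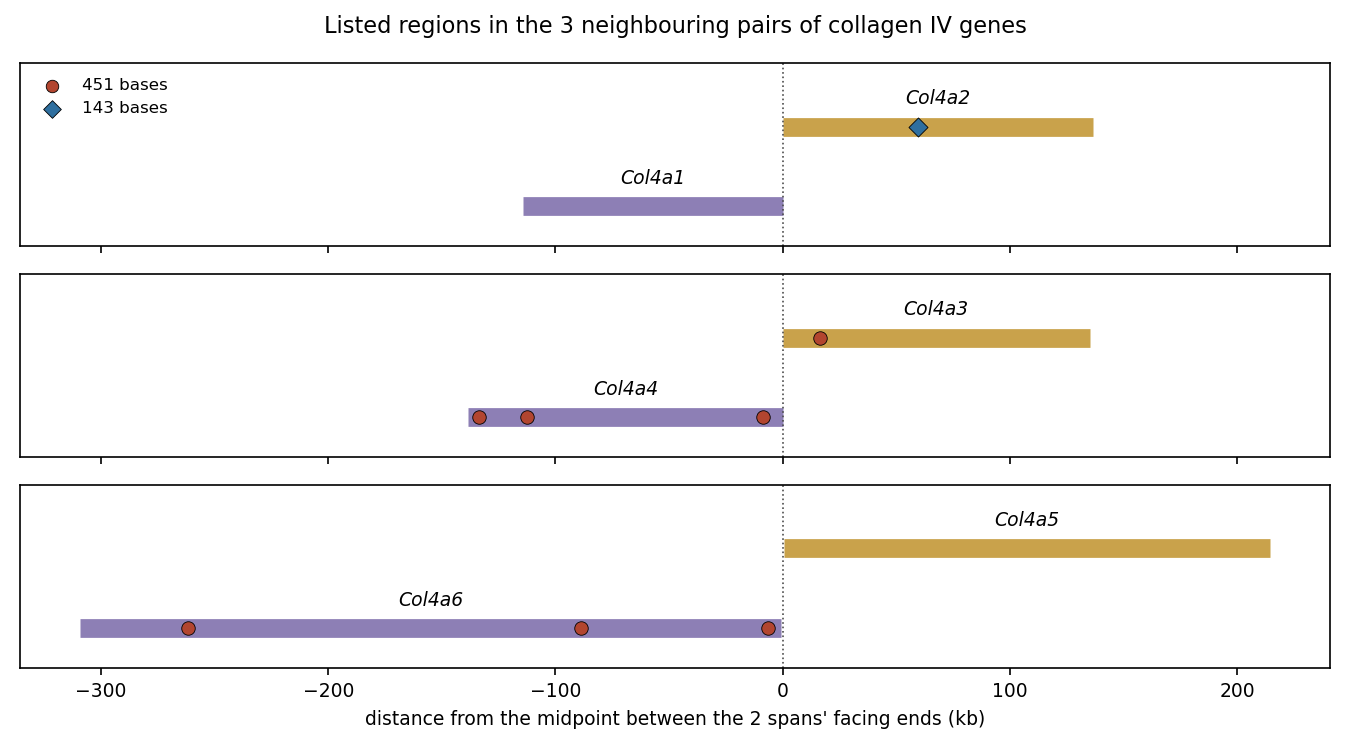
The 3 neighbouring pairs of type IV collagen genes, 1 pair to a panel, with gene spans as bars and centres of listed regions as red circles (451 bases) or blue diamonds (143 bases). The x axis is the distance in kb from the midpoint between the facing ends. Col4a4 and Col4a6 have 3 circles each, Col4a3 has 1, Col4a2 has 1 diamond, and Col4a1 and Col4a5 have no mark.

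The other basement membrane collagens had 143-base regions only. Col17a1, the hemidesmosomal collagen of basal cells (NCBI gene 12821), had 1 region inside its 3′ part, at 89.7% of its 45.7 kb span and 41.0 kb from its start site (chr19:47650955-47651097). The span of the next protein-coding gene, Slk, was 5.78 kb from it. Col15a1, which encodes a collagen that bridges the basement membrane and the fibres beneath, had 2 regions around its 3′ end. The first was 2.16 kb inside (chr4:47310940-47311082) and the other 1003 bases outside (chr4:47314099-47314241), just beyond the 1 kb used here for gene ends. Neither Col7a1, the anchoring fibril collagen, nor Col18a1, the source of endostatin, was given a region. Their nearest regions lay 446 kb and 121 kb away.

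The promoter of Col17a1 is shown because this gene was among the basal markers listed here and none of its 300 window bases lay in a listed region. Its level in the sorted cells could not be checked. The window (RefSeq, GRCm38.p6, chr19:47691993-47692292, minus strand) runs from 250 bases before to 50 bases after the annotated start. Capitals mark a match to the GATA motif AGATAA that begins 36 bases before the start site, and a match to the p63 decamer motif GGACTTGTTT after it. Both are matches of letters and not shown to be bound.

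Col17a1: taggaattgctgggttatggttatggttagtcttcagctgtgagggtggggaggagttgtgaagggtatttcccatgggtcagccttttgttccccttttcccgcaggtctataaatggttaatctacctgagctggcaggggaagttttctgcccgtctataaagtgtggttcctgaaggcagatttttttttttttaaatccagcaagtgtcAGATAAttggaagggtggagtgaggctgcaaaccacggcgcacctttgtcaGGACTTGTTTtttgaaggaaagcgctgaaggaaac

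Among fibrillar collagens, regions were given to Col1a2, Col3a1, Col11a1, Col24a1 and Col27a1. Of their 9 regions, 5 lay outside the genes, all upstream. Col3a1, which encodes type III collagen, a partner of type I in soft tissue, had 1 region of 451 bases 4.46 kb inside its 5′ end (chr1:45315774-45316224). Its neighbour Col5a2, 24.6 kb away, had none. Col1a2, which encodes the second chain of type I collagen, had a 451-base region 74.4 kb upstream (chr6:4430952-4431402). That region lay inside noncoding genes and another region, given to Casd1, lay closer to Col1a2, at 52.8 kb. Its partner Col1a1 had none, and its nearest region was 451 kb away. Col2a1, Col5a1, Col5a3 and Col11a2 also had none, and the distance from the 6 empty fibrillar genes to any region ran from 58.3 to 997 kb.

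Col24a1, a minor fibrillar collagen known from bone, had 4 regions around its 5′ end, at 24.5 kb (chr3:145267732-145268182) and 6.32 kb (chr3:145285926-145286376) upstream and 13.0 kb (chr3:145305363-145305505) and 28.6 kb (chr3:145320839-145321289) inside. The region at 13.0 kb was 143 bases wide and the others 451 bases. The nearest other protein-coding gene to any of them, Odf2l, was 114 kb away. Col11a1, whose chain helps to start cartilage fibrils, had 2 regions of 143 bases only 0.582 kb apart, 77.9 and 77.3 kb upstream (chr3:113952523-113952665 and chr3:113953105-113953247). Col27a1, a cartilage-associated fibrillar collagen, had 1 region of 143 bases near its 3′ end, at 90.6% of the span (chr4:63323514-63323656).

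**Figure D5:**
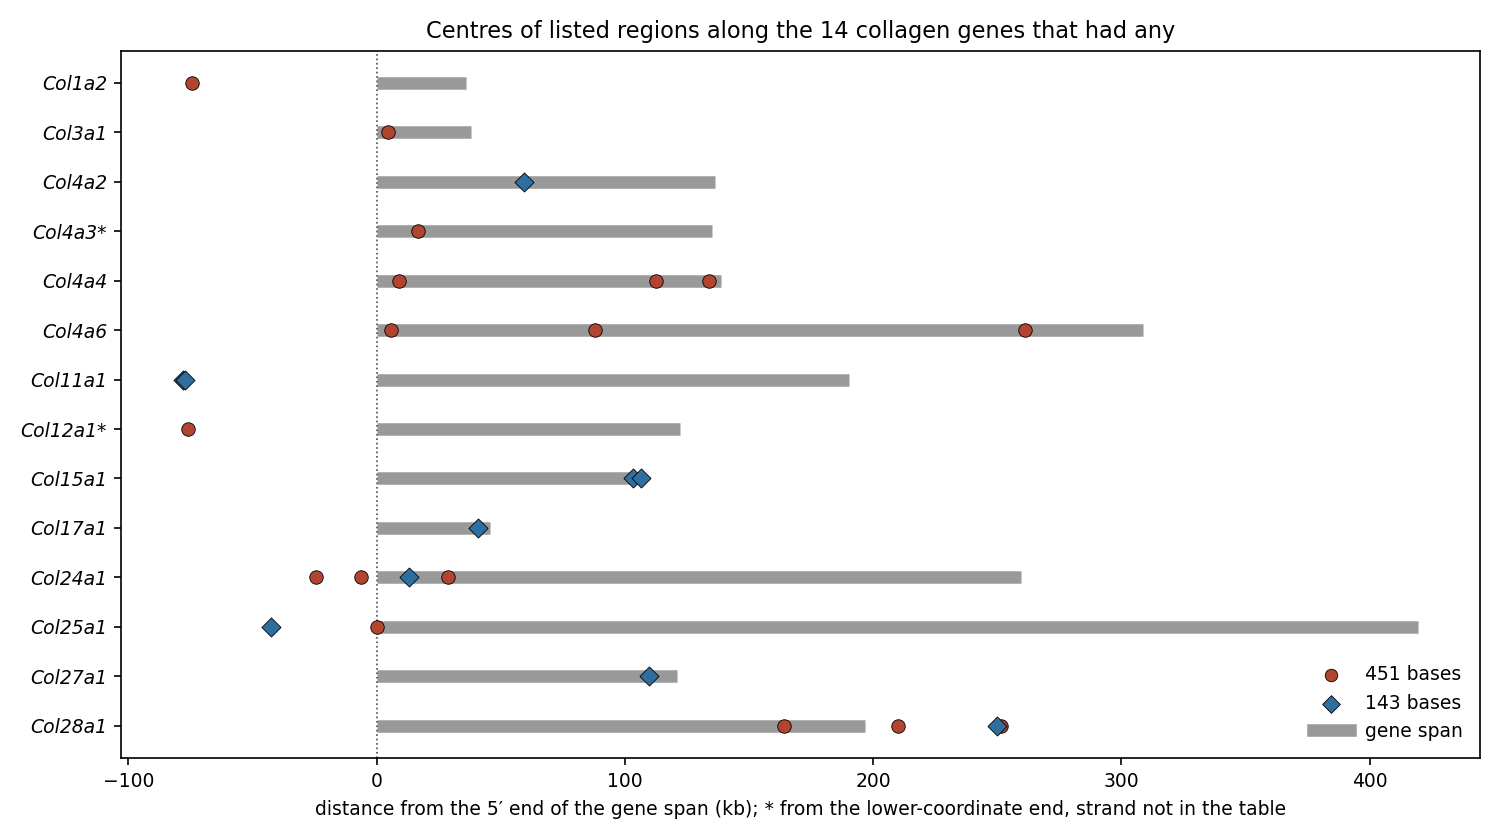
Centres of the 27 listed regions along the 14 collagen genes that had any. The x axis is the distance in kb from the 5′ end of the gene span (Col4a3 and Col12a1, whose strand is not in the promoter table, are drawn from the lower-coordinate end), grey bars are gene spans, red circles 451-base and blue diamonds 143-base regions. Col24a1 has its 4 regions between 24.5 kb upstream and 28.6 kb inside, and Col15a1, Col17a1 and Col27a1 have theirs in or just beyond the last 20% of the span.

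In the remaining class, 20 of 23 genes had no listed region. Most protein-coding genes had none either, since only 17.0% of all of them had one. The exact intervals of the share with a region reached 45.9% for collagen VI and 48.2% for fibril-associated collagens. Groups so small are not shown to differ from other genes. For the whole class the share was 13.0% (exact interval 2.78 to 33.6). That interval held the 17.0% of all genes but lay below the 41.6% of genes of 100 to 200 kb, where its median span of 107 kb falls. The spans of the class ran from 7.11 to 420 kb and no matched background was computed. Whether these collagens differ from other genes of their length was therefore not tested. None was given to the 6 genes of collagen VI (Col6a1 to Col6a6), which forms beaded microfilaments, or to Col8a1, Col8a2 and Col10a1, which form short-chain networks. Of the 9 genes of fibril-associated collagens, which decorate the surface of fibrils, 8 had none: Col9a1, Col9a2, Col9a3, Col14a1, Col16a1, Col19a1, Col20a1 and Col22a1. The transmembrane collagens Col13a1 and Col23a1 and the gene Col26a1 were also empty. Long genes were among the empty ones, such as Col22a1 (355 kb), Col19a1 (330 kb) and Col23a1 (294 kb). Of all protein-coding genes of 200 kb or more, 58.5% had a region, and Col25a1, the longest collagen gene (420 kb), had 2. The distance from the 20 empty genes to the nearest region had a median of 391 kb and ran from 33.2 kb (Col10a1) to 913 kb (Col6a4). Col12a1, a fibril-associated collagen of tendon and other dense tissue, had a 451-base region 76.0 kb outside its span (chr9:79522729-79523179). Col28a1, known from peripheral nerve, had 4 regions, 1 of them inside and 3 downstream at 13.6, 53.2 and 55.1 kb. The downstream regions all lay inside noncoding genes. The inside one was 451 bases wide, at 83.5% of the span (chr6:8029241-8029691).

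Col25a1 was the only collagen gene with a region within 1 kb of a gene end (1 of 44, 2.27%, background 3.35%). It encodes a transmembrane collagen first known from amyloid plaques and needed for motor nerves to reach muscle. Its 451-base region (chr3:130180485-130180935) was centred 0.352 kb inside the span, 0.135 kb before the annotated start site of the promoter table. A 143-base region lay 42.6 kb upstream (chr3:130137708-130137850). The larger region covered all 300 bases of the promoter window. Among 38 windows of 35 collagen genes, this was the single window that shared a base with a listed region (2.63%), against 2.21% of all 32851 windows. Full cover was found for 0.597% of all windows.

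The window of Col25a1 (RefSeq, GRCm38.p6, chr3:130180595-130180894, plus strand) is printed because it is the part of a collagen gene that the list reaches most directly. Capitals mark a stretch of 16 bases, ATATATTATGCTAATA, present at 161 and again at 75 bases before the start site. This repeat was noticed on reading the sequence. A stretch at least that long is repeated in 2.40% of all windows, and in 1.54% the stretch holds all 4 bases. Of the 38 collagen windows 2 had one, and the other was longer, at 19 bases.

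Col25a1: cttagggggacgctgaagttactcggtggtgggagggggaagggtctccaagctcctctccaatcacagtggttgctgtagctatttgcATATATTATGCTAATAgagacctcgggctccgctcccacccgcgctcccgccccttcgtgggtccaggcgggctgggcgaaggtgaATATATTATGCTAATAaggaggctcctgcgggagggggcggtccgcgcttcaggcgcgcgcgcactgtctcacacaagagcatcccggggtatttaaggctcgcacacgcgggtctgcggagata

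Inside regions were found at 11 collagen genes (25.0%, background 10.2% over genes of all lengths), and 3 genes, Col1a2, Col11a1 and Col12a1, had regions outside only. The farthest region accepted by the distance rule was the one 77.9 kb from Col11a1. A single region beyond 100 kb had a collagen as its nearest gene, 433 kb from Col12a1. Within 100 kb of a collagen span there were 18 cases in which a region was given to another gene that was nearer or enclosed it, and in 6 of them that gene was another collagen. Position does not show which gene a region acts on.

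The promoter windows of collagen genes were searched on both strands for 8 motifs. Col1a1, Col2a1, Col4a3, Col5a2, Col9a3, Col12a1, Col14a1, Col22a1 and Col26a1 had no window in the table. The AP-1 motif TGANTCA was in 1 of 38 windows (Col6a1, 2.63%), against 7.81% of all windows. The NF-kB consensus was in 7 windows (18.4%, against 8.46%), those of Col9a1, Col27a1, Col9a2, Col4a2, Col6a4 and both windows of Col6a2. The p63 decamer was in 4 (10.5%, against 8.36%), those of Col20a1, Col9a2, Col6a6 and Col17a1. The androgen response element was in none (0.00913% of all windows), and AGAACA, which is also part of that element, in 2 (5.26%, against 19.0%). The STAT motif TTCNNNGAA was in 2 (5.26%, against 8.30%), the TEAD motif GGAATG in 5 (13.2%, against 14.7%) and the GATA motif AGATAA in 2 (5.26%, against 11.2%). Collagen windows had a median GC content of 59.8% against 52.7% for all windows, and the part of base composition in these shares was not tested. The window of Col25a1, inside the listed region, held none of the 8. Windows of Col4a2 and Col27a1 held the NF-kB letters, but the listed regions of both genes lay 59.5 and 108 kb from the start site.

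Genes that act on collagen were examined as a separate list of 44, of which 16 had a listed region (36.4%, exact interval 22.4 to 52.2, background 17.0%). The list was chosen with earlier results of these data known, so its share is not independent evidence of an excess. The median span of the list was 28.9 kb, above the 17.2 kb of all protein-coding genes, and the background was not matched for span. The 16 genes comprised 7 of 23 genes for folding, modification and secretion, 2 of 5 cross-linking genes, 6 of 10 receptors and 1 of 6 degrading enzymes. Their 28 regions included 17 of 451 bases and 11 of 143 bases. In the first group, Mia3, which encodes the TANGO1 protein that loads procollagen into transport carriers, had 2 regions of 451 bases, and one was centred 0.069 kb outside the gene, across its 5′ end (chr1:183369409-183369859). Plod2, a lysyl hydroxylase gene, had 2 regions of 451 bases, the closer to an end 2.69 kb inside. P3h2, a prolyl 3-hydroxylase gene that acts on type IV collagen, had 4 regions, all outside, the closest at 5.89 kb. P4ha2, a prolyl 4-hydroxylase gene, had 2 regions of 143 bases outside, the closest at 8.91 kb. Adamts3, Tll1 and Pcolce2, which act in procollagen cleavage, had 1 each.

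Both cross-linking genes with a region had a 451-base region inside. It lay 0.145 kb from the gene end in Lox, the lysyl oxidase gene, and 1.36 kb from it in Loxl4. Among receptors, the collagen-binding integrin gene Itga1 had 7 regions, 6 of them 451 bases wide, and the closest was 0.191 kb inside the gene end. That region held the annotated start site of Itga1 and 84 bases of its promoter window. Of the 37 promoter windows of this list, 2 shared a base with a listed region (5.41%, against 2.21% of all windows), those of Mia3 and Itga1. Itga10 had a 143-base region 4.55 kb from its end, and Itga2, Itgb1, Ddr1 and Ddr2 had 1 region each. Mmp2, a gelatinase gene, had a 451-base region 5.85 kb inside. The prolyl hydroxylase genes P4ha1 and P3h1, the chaperone gene Serpinh1 and the protease genes Mmp9, Mmp13 and Mmp14 were among the 28 with none.

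The promoter of Mia3 (RefSeq, GRCm38.p6, chr1:183369516-183369815, minus strand) is printed for comparison with Col25a1, since its 300 bases were also covered whole by a listed region. It held none of the 8 motifs, so no letters are in capitals. Its GC content was 72.0%, against 60.0% for Col25a1 and 46.3% for Col17a1.

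Mia3: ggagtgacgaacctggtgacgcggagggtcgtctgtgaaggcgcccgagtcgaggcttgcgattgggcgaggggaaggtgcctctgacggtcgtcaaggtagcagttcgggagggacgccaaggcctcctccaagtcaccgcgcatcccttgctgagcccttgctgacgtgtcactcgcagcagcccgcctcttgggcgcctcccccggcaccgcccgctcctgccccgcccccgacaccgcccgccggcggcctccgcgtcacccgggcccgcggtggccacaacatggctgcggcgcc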

How the data were processed

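The deposited list was made by the authors from ATAC-seq of 6 libraries. BWA (version 0.7.17-r1188), HOMER (version 4.8), SAMtools and edgeR are named, with build mm10, per the submitters' processing notes. Their order, settings and filters are not given in the sources used here, nor whether libraries were pooled. The deposited values are coordinates only, so no test between groups, replicate error or depth was available.

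Starts were shifted to count from 1. Genes came from RefSeq GRCm38.p6 (49997 genes, of which 21887 protein-coding on chromosomes 1 to 19, X and Y were used), which gives spans without exons, so exons and introns were not told apart. Strand, start sites and 300-base promoter windows came from a RefSeq table that holds 35 of the 44 collagen genes. Every gene enclosing a region's centre counted. Python 3.11.15, pandas 2.3.3 and scipy 1.17.1 were used. Against a plain search, 2000 of 2000 simulated positions got the same genes. All genes with a region are named. The genes, classes and lists were chosen with earlier results of these data known. Other settings changed the distance limit, enclosing gene, gene types, overlap, width, merging and class makeup.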

Additional observations from a re-analysis of the deposited data

How the results depend on the processing

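The count of 14 collagen genes ran from 11 to 14 within 50 kb, within 10 kb, inside spans only, with the shortest enclosing gene, outside RefSeq genes of any kind, by any base of overlap and with regions within 1 kb merged. The share of all protein-coding genes moved too, from 17.0% to 16.1% within 50 kb, 13.1% within 10 kb, 10.2% inside spans and 13.6% outside RefSeq genes of any kind. The collagen count was 9 with 451-base regions only (9.22% of all genes), 8 with narrower regions only (9.95%) and 1 within 1 kb of a gene end (3.35%). The 27 regions became 17, 10 and 1 in these 3 settings, and 16 inside spans only, since fewer regions enter. Inside spans only, fibrillar genes with a region fell from 5 to 3 and their regions from 9 to 4, and regions at other collagens from 7 to 2, while basement membrane genes stayed at 6. Without Col4a4 and Col4a6, an alternative added after the data were seen, the 11 basement membrane regions became 5. Col1a2, Col11a1 and Col12a1 were lost within 50 kb, within 10 kb and inside spans only. No paired analysis was possible because single libraries have no values in it, and leaving out a library could not be run for the same reason. The 16 collagen-acting genes were 13 within 10 kb and 11 inside spans only. In all, 22 of the 33 recomputed counts stayed within 1.5 times the reported one. Some settings could change little. The shortest enclosing gene, any base of overlap and merging each gave 14 collagen genes again. The tally also sets no background beside the counts, so it does not measure how stable the results are. Depth is unknown.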

Other observations

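Regions inside collagen genes lay mostly in the first or last 20% of the span, a pattern noticed after the positions were seen. Of all 27 regions, inside or outside, 1 lay within 1 kb of a gene end (3.7%, exact interval 0.0937 to 19.0). The share was 12.9% among the 5587 regions given to any protein-coding gene, which lies inside that interval. It covers genes of all lengths, so regions at collagen genes are not shown to differ from others in this respect. Of the 15 inside regions in genes with a known strand, 6 were in the first 20% of the span (Col3a1, Col4a4, Col4a6, Col25a1 and 2 in Col24a1) and 7 in the last 20% (2 in Col4a4, and 1 each in Col4a6, Col15a1, Col17a1, Col27a1 and Col28a1). The others, in Col4a2 and Col4a6, lay between. The share between was 13.3%, against 52.8% of 2465 regions inside protein-coding genes and 55.8% of 1363 inside those of 100 kb or more. The share in the last 20% was 46.7%, against 17.4% and 20.6%. The 15 regions come from 10 genes, and no test was made.

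Of the 13 adjacent pairs of regions at the same collagen gene, 8 had equal width (61.5%), against 69.2% of 1899 adjacent pairs at protein-coding genes. Within 10 kb of each other lay 3 pairs: the 143-base pairs at Col11a1 (0.582 kb) and Col15a1 (3.16 kb), and the pair of unequal width downstream of Col28a1 (1.91 kb).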
